A study of Mus musculus with 12 samples.

Results

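The nuclear genes of the mitochondrial respiratory chain were followed across 12 Affymetrix whole-transcript arrays of RAW 264.7 cells. They were taken by symbol: rows of the deposited value table with a single gene symbol that begins with Nduf and a subunit letter and number (complex I), is Sdha, Sdhb, Sdhc or Sdhd (complex II), or begins with Uqcr (complex III), Cox4 to Cox8 (complex IV) or Atp5 (complex V, the ATP synthase). The rule found 89 rows of 80 genes, among 41345 rows in all and 22180 genes with a row of their own. Of the 80 genes, 33 belonged to complex I, 4 to complex II, 8 to complex III, 17 to complex IV and 18 to complex V.

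RAW 264.7 is an adherent macrophage line of the mouse, of monocytic origin, made by transformation with the Abelson leukaemia virus. The 3 groups were pre-miR-223 (an oligonucleotide that adds miR-223), anti-miR-223 (an inhibitor of miR-223) and an irrelevant scramble, each harvested at 48 h after transfection and each with 4 arrays called biological replicates. No allele, strain or further agent is named for any group, all cells went through transfection, and no untransfected group was used here. The labels do not say that replicates came from separate cultures or transfections, so p-values measure the spread between these arrays, which may be technical. No row had Mir223 as its only symbol, and delivery of either oligonucleotide was not checked here.

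The respiratory chain sits in the inner mitochondrial membrane. Complexes I and II pass electrons from NADH and succinate to ubiquinone, complex III passes them on to cytochrome c, and complex IV passes them to oxygen. Complexes I, III and IV pump protons, and complex V uses the proton gradient to make ATP. All but complex II also hold subunits encoded in mitochondrial DNA. Macrophages are known to shift between glycolysis and respiration when they are activated. Nuclear respiratory factor 1 (NRF1) and GA-binding protein (GABP, also called NRF2) are known regulators of many of these genes.

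The oligonucleotides act on miR-223, whose main mature strand is printed from RefSeq (GRCm38.p6, chrX:96242884-96242905, plus strand) with the seed, bases 2 to 8, in capitals.
mmu-miR-223-3p: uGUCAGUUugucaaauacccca

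Promoters were searched because these genes are known as targets of shared transcription factors. RefSeq (GRCm38.p6) held the 250 bases before the gene start for 64 of the 80 genes. The letters GCGCA followed directly by TGCGC, an NRF1 motif that reads the same on both strands, stood in 4 of the 64 genes (6.25%). They stood in 0.782% of all 32851 promoters and in 1.66% of the 11362 tested genes with a promoter. A gene was counted if any of its promoters matched, whereas the share of all promoters counts each promoter singly. The letters CCGGAAG, a GABP motif, stood on either strand in 12 of the 64 genes (18.8%), against 6.91% of all promoters and 13.4% of the tested genes. The letters GGGCGG (SP1) stood in 37.5%, against 32.7% and 57.7%, and TATAAA in 10.9%, against 12.4% and 9.12%. None of these motifs overlapped another in the sequences printed, and a match is only a run of letters. All 5 promoters printed below hold an NRF1 or GABP match, whereas 47 of the 62 tested genes with a promoter held neither. Those of Ndufs8 and Uqcrc1, also described below, held neither and are not printed. The promoters printed belong to genes described below, of which Atp5k differed from scramble by only 0.0047 with pre-miR-223. Each is 250 bases, 5′ to 3′ on the gene's own strand, with NRF1 and GABP matches in capitals (CTTCCGG is the GABP motif read on the other strand).
Ndufa11 (chr17:56717512-56717761, plus strand, NRF1 match beginning 60 bases before the start): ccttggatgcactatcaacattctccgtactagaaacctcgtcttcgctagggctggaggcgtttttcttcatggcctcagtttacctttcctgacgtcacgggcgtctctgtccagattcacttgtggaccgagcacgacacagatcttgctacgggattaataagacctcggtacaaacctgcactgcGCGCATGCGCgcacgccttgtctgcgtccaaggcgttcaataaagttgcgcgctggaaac
Sdhd (chr9:50603850-50604099, minus strand, GABP match 46 bases before the start): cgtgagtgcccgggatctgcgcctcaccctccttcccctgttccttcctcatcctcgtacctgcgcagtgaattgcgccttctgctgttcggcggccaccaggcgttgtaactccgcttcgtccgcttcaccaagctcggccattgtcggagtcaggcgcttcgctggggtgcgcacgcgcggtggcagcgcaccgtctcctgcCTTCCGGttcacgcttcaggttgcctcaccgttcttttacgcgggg
Cox6a1 (chr5:115348959-115349208, minus strand, NRF1 match 162 and GABP match 16 bases before the start): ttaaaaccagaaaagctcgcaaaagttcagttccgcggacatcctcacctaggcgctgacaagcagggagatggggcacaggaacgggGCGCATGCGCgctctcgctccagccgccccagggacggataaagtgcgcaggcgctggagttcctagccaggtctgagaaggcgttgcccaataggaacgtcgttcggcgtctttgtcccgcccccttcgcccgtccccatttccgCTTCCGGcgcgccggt
Atp5h (chr11:115419920-115420169, minus strand, GABP match 38 bases before the start): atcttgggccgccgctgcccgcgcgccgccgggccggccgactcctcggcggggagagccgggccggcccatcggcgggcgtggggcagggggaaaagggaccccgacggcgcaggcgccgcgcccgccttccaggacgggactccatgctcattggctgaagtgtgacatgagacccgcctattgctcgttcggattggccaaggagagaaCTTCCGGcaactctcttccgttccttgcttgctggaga
Atp5k (chr5:108434400-108434649, minus strand, NRF1 match 50 bases before the start): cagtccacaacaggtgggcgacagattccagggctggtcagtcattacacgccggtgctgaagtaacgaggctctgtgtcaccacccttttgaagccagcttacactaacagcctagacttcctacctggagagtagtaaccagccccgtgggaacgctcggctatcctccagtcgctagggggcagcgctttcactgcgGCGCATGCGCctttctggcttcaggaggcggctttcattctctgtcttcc

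Values were deposited by the authors as normalised signal on a log scale, taken as log2, so that a difference of 1 is read as a doubling. Each gene was represented by its row with the highest mean over the 12 arrays, and was tested where that mean lay above log2 2.01, the 40th percentile of all rows. This left 74 of the 80 genes among 14611 tested genes: 32 of complex I, 4 of complex II, 7 of complex III, 14 of complex IV and 17 of complex V. The 6 genes below the level were Ndufa4l2 (1.87), Cox6b2 (1.98), Cox7b2 (1.77), Cox8c (1.82) and the pseudogenes Atp5c1-ps (1.53) and Uqcrh-ps1 (1.29). Just above it lay Cox8b (2.04), Ndufs5 (2.07), Cox4i2 (2.18) and Cox6a2 (2.19). The low isoforms include testis or muscle forms of complex IV subunits: Cox6b2 and Cox8c are known from testis, Cox6a2 and Cox8b from heart and muscle. Another 10 rows that list a subunit gene beside a second symbol, such as those of Ndufs6 and Cox6c, were not used here. The 13 subunits encoded in mitochondrial DNA were not analysed here.

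Most macrophage markers passed the level, which some markers of other cell types also did. Of 9 macrophage markers, 8 passed the level, with Lyz2 at 11.3, Cd68 at 9.95 and Csf1r at 9.27 in scramble arrays, whereas Mrc1 (1.88) did not. Mertk passed at only 2.47 in scramble arrays. Markers of fibroblasts, epithelium, T or B cells and neutrophils reached at most 2.58, 3.48, 2.20 and 2.16 in scramble arrays. Of these, 3 of 6, 3 of 5, 3 of 7 and 2 of 6 passed the level, so passing it does not by itself show expression. In bulk RNA such as this, fewer cells of a kind and less RNA per cell cannot be told apart.

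Several arrays stood apart from their groups. Anti-miR-223 replicate 4 differed in many genes: 48.6% of the subunit genes lay below all 11 other arrays there (13.5% of all tested genes) and 14.9% above all 11 (34.1% of all tested genes). Pre-miR-223 replicate 2 was above the 3 other pre-miR-223 arrays for 58 of the 74 subunit genes, and replicate 4 was below the other 3 for 46.

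In most arrays the subunit genes lay largely on one side of their means. In pre-miR-223 arrays, 16, 61, 11 and 11 of the 74 genes lay above their own 12-array mean in replicates 1 to 4, with median deviations of -0.11, 0.14, -0.13 and -0.25 log2. In anti-miR-223 arrays the counts were 51, 28, 64 and 22, with medians of 0.06, -0.05, 0.15 and -0.28. In scramble arrays the counts were 54, 59, 62 and 59, with medians of 0.11, 0.14, 0.13 and 0.06. Thus 3 pre-miR-223 arrays lay below all scramble arrays, and pre-miR-223 replicate 2 lay within the scramble range, by the median of the 74 genes. By the same median, anti-miR-223 replicates 1, 2 and 4 also lay below all scramble arrays, at 0.063, -0.0502 and -0.2809. The lowest scramble array stood at 0.0647, so anti-miR-223 replicate 1 was only just below. Over all tested genes the medians ran from -0.08 in pre-miR-223 replicate 4 to 0.08 in anti-miR-223 replicate 4. The SD of a subunit gene over the 12 arrays had a median of 0.23 (0.10 to 0.56), against 0.19 over all tested genes. Without anti-miR-223 replicate 4 it was 0.19, against 0.17. Sdha, the flavoprotein of complex II, varied least (SD 0.10), and Ndufs8, an iron-sulfur core subunit of complex I, varied most (0.56).

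**Figure D1:**
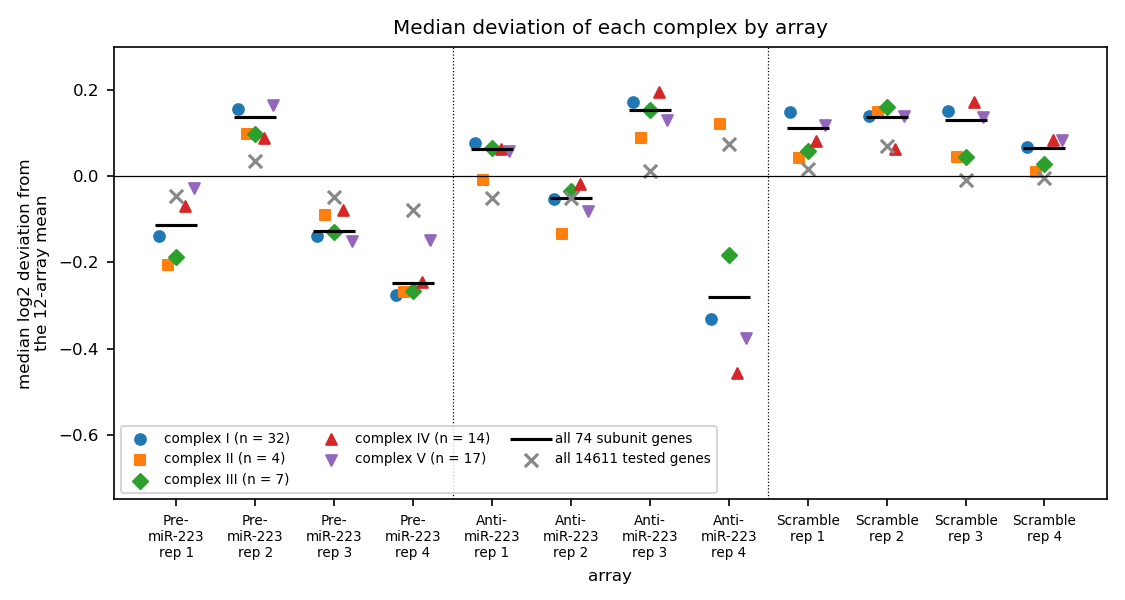
Median log2 deviation (vertical axis) of each complex, of the 74 subunit genes together (bars) and of all 14611 tested genes (crosses) from the genes' 12-array means, by array (horizontal axis). By the bars, pre-miR-223 replicates 1, 3 and 4 and anti-miR-223 replicates 1, 2 and 4 lie below every scramble array, anti-miR-223 replicate 1 only just. Pre-miR-223 replicate 2 lies among the scramble arrays, with complexes I and V there above all of them. Anti-miR-223 replicate 4 has complexes I, III, IV and V low and complex II above 0.

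**Figure D2:**
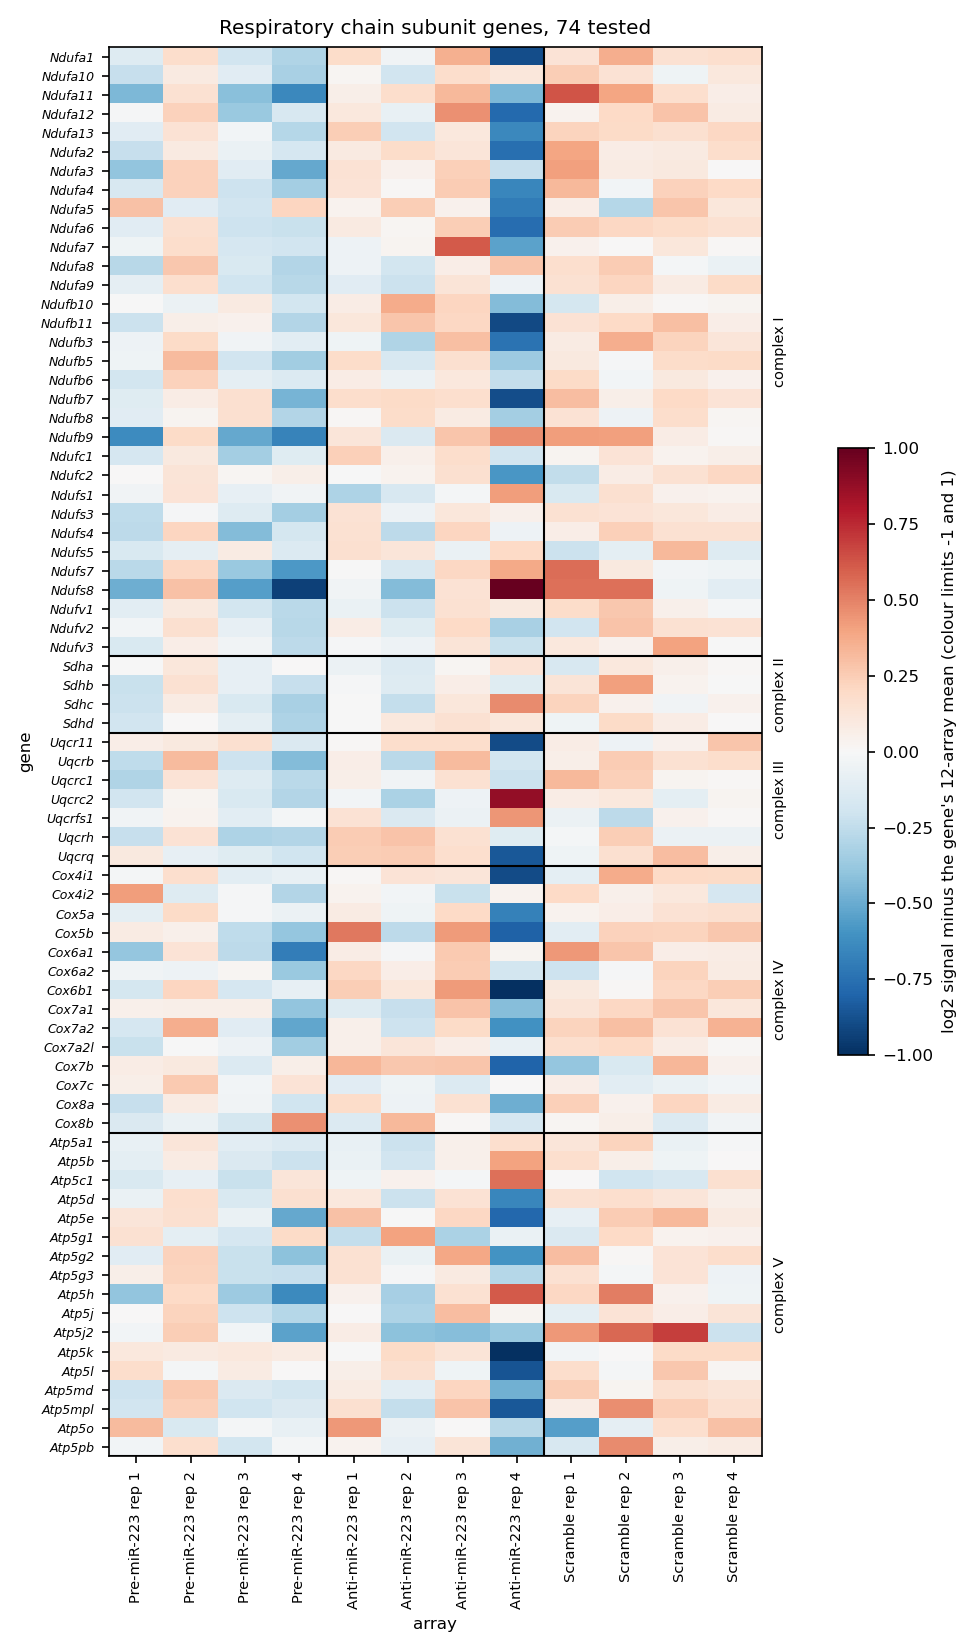
Log2 signal of each of the 74 tested subunit genes (rows, by complex) in each array (columns) minus the gene's own 12-array mean, with colours limited at -1 and 1. Blue in pre-miR-223 replicates 1, 3 and 4 runs across all complexes, and anti-miR-223 replicate 4 holds both the lowest values (Cox6b1) and the highest (Ndufs8).

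With pre-miR-223, subunit genes were lower than with scramble in all 5 complexes by a small amount, and none passed the test. The difference of group means was below 0 for 65 of the 74 genes (65.2% of all tested genes were below 0), with a median of -0.20 log2 against -0.05 over all tested genes. The median was -0.25 in complex I (30 of 32 lower), -0.21 in complex II (3 of 4), -0.20 in complex III (6 of 7), -0.18 in complex IV (11 of 14) and -0.13 in complex V (15 of 17). Single genes ran from -0.66 (Ndufs8) to 0.14 (Cox7c, a small complex IV subunit). These medians kept their sign when arrays were centred, quantile normalised again or scaled by cyclic loess, at -0.12, -0.14 and -0.09 for the 74 genes, of which 57, 61 and 56 were then lower. Complex V was nearest to 0 there, at -0.05, -0.05 and -0.03 with 12, 14 and 10 of 17 genes lower. Over all tested genes the medians were then 0.03, -0.03 and -0.01.

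By limma, with Benjamini-Hochberg adjustment over the 14611 genes, 0 of the 74 genes were called (0.0% of all tested genes), and the lowest adjusted p was 0.921. An ordinary linear model also called 0. At an unadjusted p under 0.05 stood 14 subunit genes (18.9%), all lower, against 4.87% of all tested genes, of which 3.85% lower and 1.02% higher. The ordinary linear model gave 9, all lower (3.69% of all tested genes lower). The 14 were Ndufb9, Ndufa11, Ndufs3, Ndufa9, Ndufs4, Ndufs7, Ndufa10, Ndufs8, Ndufa3, Uqcrc1, Cox6a1, Cox7a2l, Atp5h and Atp5j2. The number of lower genes at that p was 27 when pre-miR-223 replicate 2 was left out, with 8.56% of all tested genes lower at that p, and 24 when anti-miR-223 replicate 4 was, with 7.64%. It was 5, 5 and 4 without pre-miR-223 replicates 1, 3 and 4 (2.55%, 2.43% and 1.53% of all tested genes), and 7 and 5 without scramble replicates 1 and 2 (2.46% and 2.07%). Leaving out pre-miR-223 replicate 2 put the median of the 74 genes at -0.28, and leaving out replicate 4 of that group put it at -0.16. All 4 pre-miR-223 arrays lay below all 4 scramble arrays for 5 genes, Ndufs3, Ndufa13, Ndufb11, Cox7a1 and Cox7a2l (6.76%, against 2.2% of all tested genes). For no subunit gene did they all lie above (0.773% of all tested genes). The 95% intervals had a median half-width of 0.33 log2. They left out a fall of 1.5-fold or more for 47 of the 74 genes and of 2-fold or more for 71.

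Complex I held 9 of these 14 genes. Ndufb9, an accessory subunit of its membrane arm, had 8.55, 9.37, 8.67 and 8.51 log2 signal in pre-miR-223 arrays, 9.30, 9.03, 9.46 and 9.64 in anti-miR-223 arrays, and 9.60, 9.59, 9.25 and 9.19 in scramble arrays. Pre-miR-223 replicates 1, 3 and 4 lay below every other array, while replicate 2 lay within the range of both other groups. The mean was 8.77 ± 0.40 with pre-miR-223 and 9.41 ± 0.22 with scramble (SD, n = 4 each), a difference of -0.63 (95% interval -1.04 to -0.23, limma adjusted p 0.921). Ndufs8 had 7.05, 7.83, 6.98 and 6.60 in pre-miR-223 arrays, 7.50, 7.10, 7.68 and 8.58 in anti-miR-223 arrays, and 8.09, 8.09, 7.50 and 7.43 in scramble arrays. The groups overlapped through pre-miR-223 replicate 2, and the highest array of all was anti-miR-223 replicate 4. Its difference from scramble was -0.66 (-1.31 to -0.01) with pre-miR-223 and -0.06 (-0.71 to 0.59) with anti-miR-223.

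The other core subunits of complex I carry its flavin and iron-sulfur clusters. With pre-miR-223 all 6 tested core genes were below scramble, with a median of -0.27, and 24 of 26 accessory genes were, with a median of -0.25. Ndufs3 had 3.56, 3.80, 3.68 and 3.47 in pre-miR-223 arrays, 3.96, 3.76, 3.92 and 3.86 in anti-miR-223 arrays, and 3.96, 3.95, 3.93 and 3.88 in scramble arrays. It was the core gene whose pre-miR-223 and scramble arrays did not overlap, with a difference of -0.30 (-0.51 to -0.09). Ndufs7, which holds the cluster next to the ubiquinone site, differed by -0.40 (-0.79 to -0.01) and Ndufv1, which binds NADH and flavin, by -0.24 (-0.49 to 0.01). Ndufv2 differed by -0.15 (-0.46 to 0.15). Ndufs1, the largest core subunit, was near scramble at -0.02 (-0.32 to 0.28), and its sign turned under each of the 3 other scalings. Ndufa11, an accessory subunit of the membrane arm with an NRF1 match in its promoter, averaged 6.83 ± 0.34 with pre-miR-223 and 7.48 ± 0.25 with scramble (SD, n = 4 each), a difference of -0.65 (-1.07 to -0.23). Its other row, at a mean of 2.66, differed by -0.25. Ndufa13 and Ndufb11, accessory subunits whose pre-miR-223 arrays lay below all scramble arrays, spanned 6.07 to 6.50 and 3.43 to 3.78 with pre-miR-223, and 6.51 to 6.58 and 3.79 to 4.02 with scramble. Their differences were -0.26 (-0.61 to 0.08) and -0.28 (-0.73 to 0.17), and their SD was 0.39 and 0.55 among anti-miR-223 arrays, where replicate 4 was lowest, in the error that all groups share.

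Complex II oxidises succinate. Sdhd, a membrane anchor, had 7.79, 7.99, 7.89 and 7.68 in pre-miR-223 arrays, 7.98, 8.09, 8.14 and 8.10 in anti-miR-223 arrays, and 7.94, 8.18, 8.06 and 7.99 in scramble arrays. Pre-miR-223 replicates 1, 3 and 4 lay below all other arrays. The difference from scramble was -0.20 (-0.42 to 0.01) with pre-miR-223 and 0.03 (-0.18 to 0.25) with anti-miR-223. Sdhb, the iron-sulfur subunit, and Sdhc, the other anchor, differed with pre-miR-223 by -0.24 (-0.49 to 0.02) and -0.22 (-0.53 to 0.08). Sdha differed by 0.01 (-0.21 to 0.22), and its intervals left out a 1.5-fold change in either comparison with scramble.

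In complex III, Uqcrc1, a core protein of the matrix side, had 7.65, 8.08, 7.82 and 7.68 in pre-miR-223 arrays, 8.01, 7.91, 8.10 and 7.73 in anti-miR-223 arrays, and 8.27, 8.18, 7.97 and 7.96 in scramble arrays. Of the pre-miR-223 arrays only replicate 2 reached the scramble range. The difference from scramble was -0.29 (-0.56 to -0.02) with pre-miR-223 and -0.16 (-0.43 to 0.11) with anti-miR-223. Uqcrc2, the other core protein, differed by -0.18 (-0.60 to 0.24) and Uqcrfs1, the Rieske iron-sulfur protein, by 0.03 (-0.24 to 0.30) with pre-miR-223. Uqcrq, a small accessory subunit with the largest spread in the complex, differed by -0.20 (-0.63 to 0.24).

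In complex IV, Cox6a1, the widely expressed form of subunit 6A, had 9.77, 10.29, 9.89 and 9.46 in pre-miR-223 arrays, 10.23, 10.14, 10.41 and 10.18 in anti-miR-223 arrays, and 10.59, 10.43, 10.22 and 10.23 in scramble arrays. Again pre-miR-223 replicates 1, 3 and 4 lay below every other array. The mean was 9.85 ± 0.34 with pre-miR-223 and 10.37 ± 0.18 with scramble (SD, n = 4 each), a difference of -0.52 (-0.85 to -0.18, limma adjusted p 0.921). Cox7a2l, known for joining complexes III and IV into supercomplexes, had 4.94, 5.17, 5.12 and 4.82 in pre-miR-223 arrays and 5.34, 5.37, 5.25 and 5.18 in scramble arrays. These did not overlap, and the difference was -0.27 (-0.49 to -0.05). Cox7a1, the heart and muscle form of subunit 7A, differed by -0.24 (-0.56 to 0.08) without overlap, and Cox7a2, the widely expressed form, by -0.36 (-0.76 to 0.03). The nuclear-encoded subunits Cox4i1, Cox5a and Cox5b differed by -0.18, -0.10 and -0.29, with intervals that held 0, and Cox5a turned sign under cyclic loess. Among isoforms near the level limit, Cox4i2, Cox6a2 and Cox8b differed by -0.05, -0.13 and 0.04, and the sign of Cox4i2 and Cox8b turned when single arrays were left out. Cox6b1, the gene with the largest spread in the complex, and Cox8a differed by -0.19 and -0.24, and Ndufa4, taken by symbol with complex I but known as a complex IV subunit, by -0.30.

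In complex V, Atp5h, subunit d of the peripheral stalk, had 8.11, 8.70, 8.14 and 7.86 in pre-miR-223 arrays, 8.54, 8.18, 8.65 and 9.12 in anti-miR-223 arrays, and 8.71, 9.02, 8.55 and 8.46 in scramble arrays. Its pre-miR-223 and scramble arrays overlapped through pre-miR-223 replicate 2, and the difference was -0.48 (-0.92 to -0.04). The F1 head holds the catalytic sites. Atp5a1 and Atp5b, the alpha and beta subunits, averaged 9.36 and 9.94 with pre-miR-223 and 9.47 and 10.08 with scramble, differences of -0.12 (-0.35 to 0.12) and -0.14 (-0.41 to 0.13). Atp5c1 (gamma), Atp5d (delta) and Atp5e (epsilon) differed by -0.04, -0.10 and -0.22, and all 3 had intervals that held 0. The 3 genes of the c ring, Atp5g1, Atp5g2 and Atp5g3, differed by -0.02, -0.29 and -0.10. Under cyclic loess Atp5a1, Atp5c1, Atp5d and Atp5g3 turned sign, and with centred arrays Atp5c1 and Atp5g1 did.

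**Figure D3:**
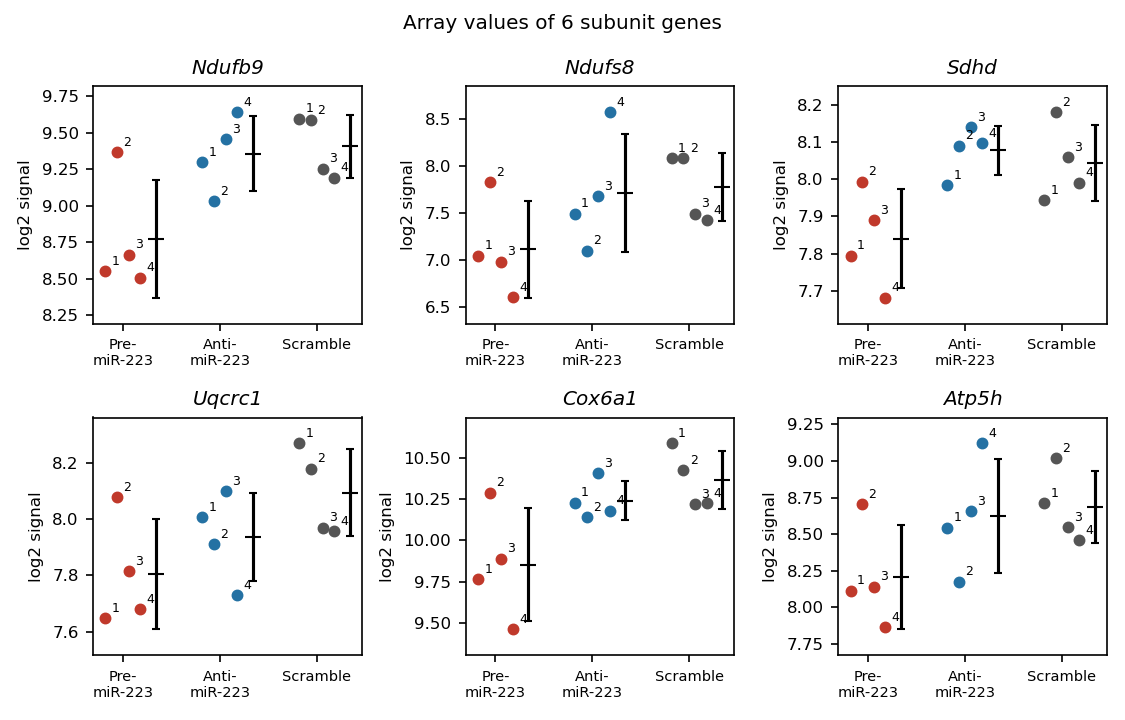
Log2 signal (vertical axis) of 6 subunit genes in each array by group (horizontal axis), with replicate numbers beside the points and the mean ± SD of 4 arrays as bars. In all 6 genes pre-miR-223 replicates 1, 3 and 4 lie below every scramble array, and pre-miR-223 replicate 2 lies higher.

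The shift with pre-miR-223 was not tested as particular to the respiratory chain. Short protein-coding genes of high level had a like median, whereas longer ones had a median nearer to 0 than the longer subunit genes. Subunit genes are short, with a median span of 7.15 kb against 19.1 kb over all tested genes, and 51 of the 74 lay above log2 6, with a median difference of -0.22. Of protein-coding genes above log2 6, the 647 with a span of at most 10 kb had a median of -0.19, with 89.3% lower, and the 2036 with a longer span had -0.09. Subunit genes within these limits were not taken out of either set. Among the subunit genes themselves, at any tested level, the 52 of at most 10 kb and the 22 longer ones had medians of -0.20 and -0.21. Of those 22, 95.5% were lower, against 76.7% of the 2036 longer protein-coding genes. The part of level and length in the result was not tested. Macrophage markers were also mostly lower with pre-miR-223, 7 of 8 with a median of -0.15, beside 65.2% of all tested genes lower. Under the 3 other scalings the median of these markers was -0.08, -0.07 and -0.06, with 5, 6 and 5 lower. The largest falls were in Cd68 (9.61 with pre-miR-223 and 9.95 with scramble), Csf1r (9.004 and 9.27) and Fcgr1 (5.72 and 6.10). Adgre1 (7.027 and 7.018) and Mertk (2.449 and 2.466) were near scramble, with Adgre1 slightly higher. Of 3 tested fibroblast markers 0 were lower. Of tested epithelial, T or B cell and neutrophil markers, 1 of 3, 1 of 3 and 1 of 2 were. The markers of these other cell types reached at most 3.48 in scramble arrays. The part of the cells' state in the shift was not tested. Among the 62 tested genes with a promoter, the 15 with an NRF1 or GABP match had a median of -0.20 (14 lower), and the 47 with neither had -0.20 (39 lower).

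The 7 other gene lists had medians of the same sign with pre-miR-223, and 0 of each list were called (limma, 0.0% of all tested genes). Their counts stand beside 65.2% of all tested genes lower. Of 17 tested complex I assembly factors 15 were lower (88.2%, median -0.23), with the smallest p in Dmac1 at -0.41 (-0.77 to -0.04). Of 31 assembly factors of complexes II to V 22 were lower (71.0%, median -0.12, and -0.22 without pre-miR-223 replicate 2), with Lyrm7, a complex III assembly factor, at -0.35 (-0.56 to -0.13). Electron carriers and ubiquinone synthesis genes had 11 of 17 lower (64.7%, median -0.11, and 0.01 under cyclic loess), with Etfb, a subunit of the electron transfer flavoprotein, at -0.35 (-0.61 to -0.09). Regulators of mitochondrial biogenesis had 12 of 15 lower (80.0%, median -0.19), with Polrmt, the mitochondrial RNA polymerase, at -0.41 (-0.67 to -0.15). The TCA cycle had 13 of 15 lower (86.7%, median -0.12, and -0.0011 under cyclic loess), with Suclg1, a subunit of succinyl-CoA synthetase, at -0.19 (-0.40 to 0.03). Mitochondrial ribosomal proteins had 61 of 71 lower (85.9%, median -0.17), and cytosolic ribosomal proteins 56 of 64 (87.5%, median -0.21). In these, Mrpl20 of the mitochondrial large subunit had -0.48 (-0.78 to -0.18) and Rpl9 of the cytosolic large subunit -0.62 (-1.09 to -0.15). At an unadjusted p under 0.05 stood 1, 4, 2, 1, 0, 11 and 12 genes of these 7 lists, in the order given, all lower, and 1 higher cytosolic ribosomal gene. These are 5.9%, 12.9%, 11.8%, 6.7%, 0.0%, 15.5% and 18.8% of the lists, against 3.85% of all tested genes.

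With anti-miR-223, most subunit genes were also below scramble, and the size rested on replicate 4. Whether the fall was smaller than with pre-miR-223 depended on the scaling. The difference was below 0 for 61 of 74 genes (52.5% of all tested genes), with a median of -0.14 against -0.01 over all tested genes. Without anti-miR-223 replicate 4 it was below 0 for 49, with a median of -0.06 against -0.05 over all tested genes. With all arrays, the anti-miR-223 median was -0.13, -0.12 and -0.10 with centred arrays, repeated quantile normalisation and cyclic loess. The pre-miR-223 median was -0.12, -0.14 and -0.09 there. The anti-miR-223 fall was thus the smaller in the deposited values and under repeated quantile normalisation, and the larger under the others. Both comparisons share the scramble arrays. By complex the medians were -0.14 in complex I (29 of 32 lower), 0.00 in complex II (2 of 4), -0.16 in complex III (4 of 7), -0.16 in complex IV (11 of 14) and -0.19 in complex V (15 of 17), and none of these changed sign under the 3 other scalings. By limma 0 genes were called (0.0% of all tested genes), the lowest adjusted p among subunit genes was 1.0, and the ordinary linear model also called 0. At an unadjusted p under 0.05 stood 3 genes, all lower (4.05%, against 2.01% of all tested genes, of which 1.35% lower and 0.664% higher). By the ordinary linear model 1 did, also lower (1.72% of all tested genes lower). For no subunit gene did the anti-miR-223 and scramble arrays fail to overlap (1.03% of all tested genes below and 0.52% above). Without anti-miR-223 replicate 4 there were 1 lower (Atp5j2, -0.63) and 2 higher genes at that p, Cox7b at 0.33 and Ndufb10, an accessory subunit of complex I, at 0.24. In that setting 1.35% of the subunit genes were lower at that p, against 4.89% of all tested genes, and 264 of the 14611 tested genes were higher. The number of lower genes at that p was 6, 1 and 9 without anti-miR-223 replicates 1 to 3 (1.29%, 1.2% and 1.96% of all tested genes lower). It was 1 without any of scramble replicates 2 to 4 (0.944%, 1.31% and 1.23%), and 1 without pre-miR-223 replicate 1 or 3 (1.16% and 1.2%).

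Those 3 genes were Atp5j2, Ndufb3 and Cox7a2. Atp5j2, subunit f of the ATP synthase membrane part, lay near the level limit, with 2.59, 2.10, 2.09 and 2.14 in anti-miR-223 arrays, 2.49, 2.76, 2.48 and 1.98 in pre-miR-223 arrays, and 2.95, 3.08, 3.20 and 2.30 in scramble arrays. Scramble replicate 4 lay within the range of the other groups, and the other 3 scramble arrays lay above them all. The difference from scramble was -0.66 (-1.09 to -0.22) with anti-miR-223 and -0.46 (-0.89 to -0.02) with pre-miR-223. Ndufb3, an accessory membrane subunit of complex I, had 6.26, 6.00, 6.61 and 5.57 in anti-miR-223 arrays and 6.39, 6.67, 6.53 and 6.43 in scramble arrays. Replicate 4 was the lowest and replicate 3 lay within the scramble range. The difference was -0.39 (-0.77 to -0.02), and -0.21 without anti-miR-223 replicate 4. Cox7a2 had 7.77, 7.52, 7.92 and 7.12 in anti-miR-223 arrays and 7.95, 8.03, 7.87 and 8.08 in scramble arrays, which overlapped, and differed by -0.40 (-0.80 to just under 0), or -0.24 without that array. In complexes II and III the genes with the smallest p were Sdhb, at -0.19 (-0.45 to 0.07), and Uqcrfs1, at 0.16 (-0.11 to 0.43). In the other lists 0 genes were called, and, beside 52.5% of all tested genes lower, the medians were -0.03 for complex I assembly factors (12 of 17 lower), -0.07 for those of complexes II to V (21 of 31), 0.00 for electron carriers (8 of 17), -0.07 for biogenesis regulators (10 of 15) and -0.03 for the TCA cycle (9 of 15, and 0.01 under repeated quantile normalisation and cyclic loess). Mitochondrial and cytosolic ribosomal proteins had -0.09 (51 of 71 lower) and -0.12 (52 of 64). Without anti-miR-223 replicate 4 the medians of the 7 lists were -0.12, -0.09, -0.07, -0.12, -0.16, -0.07 and -0.05. At an unadjusted p under 0.05 stood 1, 3, 2, 0, 0, 4 and 1 genes of the 7 lists, in that order, all lower. These are 5.9%, 9.7%, 11.8%, 0.0%, 0.0%, 5.6% and 1.6% of the lists, against 1.35% of all tested genes lower. There was also 1 higher cytosolic ribosomal gene, Rps27, at 0.45 (0.07 to 0.83).

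**Figure D4:**
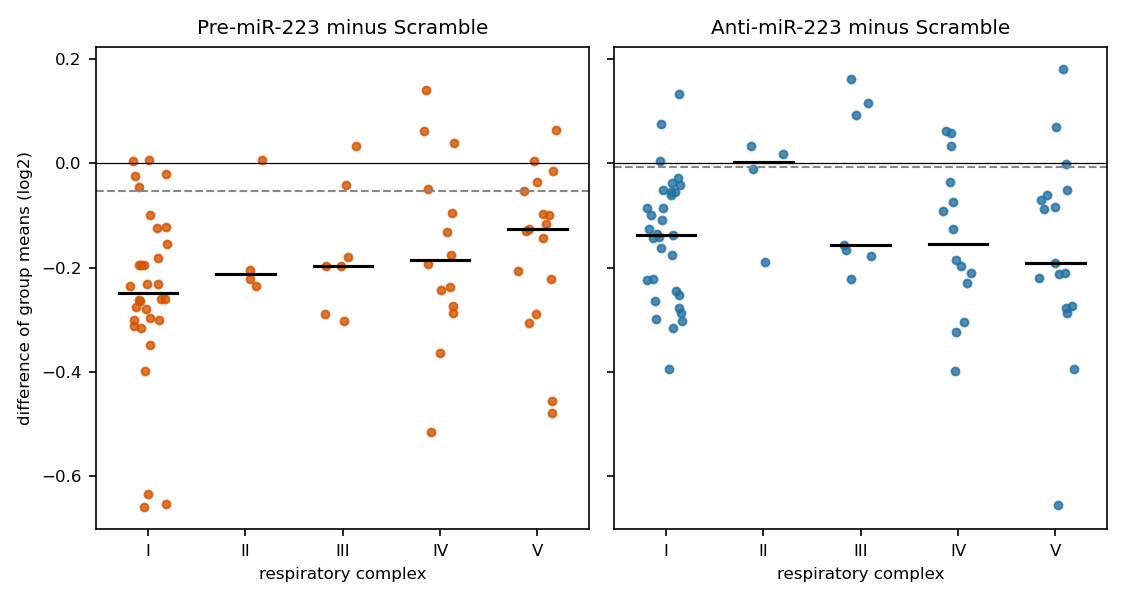
Difference of group means (log2, vertical axis) of each tested subunit gene by complex (horizontal axis), for pre-miR-223 minus scramble (left) and anti-miR-223 minus scramble (right), which share the scramble arrays. Bars are complex medians and the dashed line is the median of all tested genes. With pre-miR-223 all 5 complex medians lie below the dashed line, from -0.25 to -0.13, and with anti-miR-223 complex II lies at 0.00; no complex median in either panel changed sign under the 3 other scalings.

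Between the oligonucleotides themselves, pre-miR-223 was below anti-miR-223 for 48 of 74 genes (62.8% of all tested genes), with a median of -0.03 against -0.04 over all tested genes. This median turned to 0.05, 0.00 and 0.03 with centred arrays, repeated quantile normalisation and cyclic loess. Leaving out anti-miR-223 replicate 4 gave -0.13 with 64 genes lower, and leaving out pre-miR-223 replicate 2 gave -0.11. Leaving out pre-miR-223 replicate 4, anti-miR-223 replicate 1 or anti-miR-223 replicate 3 gave 0.01, 0.01 and 0.02. By limma and by the ordinary linear model 0 genes were called (0.0% of all tested genes), and the lowest adjusted p was 0.946. At an unadjusted p under 0.05 by limma stood 5 genes, all lower (6.76%, against 3.61% of all tested genes, of which 2.57% lower and 1.05% higher). The ordinary linear model gave 6 lower and 1 higher (2.35% of all tested genes lower). The 5 by limma were Ndufb9 at -0.58 (-0.99 to -0.18), Cox6a1 at -0.39 (-0.72 to -0.06), Uqcrh, the hinge protein of complex III, at -0.31 (-0.59 to -0.03), Ndufs3 at -0.25 (-0.45 to -0.04) and Sdhd at -0.24 (-0.45 to -0.03). The number of lower genes at that p was 13 when pre-miR-223 replicate 2 was dropped and 15 when anti-miR-223 replicate 4 was (6.17% and 2.82% of all tested genes lower). It was 1 when pre-miR-223 replicate 1, pre-miR-223 replicate 4 or anti-miR-223 replicate 3 was dropped (1.68%, 1.17% and 2.35%). It was 3 and 8 for anti-miR-223 replicates 1 and 2 (4.15% and 5.32%). In complex V the smallest p was that of Atp5h, at -0.42 (-0.86 to 0.03). No subunit gene had all arrays of either group below or above the other (0.972% and 0.698% of all tested genes).

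In anti-miR-223 replicate 4 subunits of the same complex lay far to either side of the other arrays. Against the mean of the 11 other arrays it had a median of -0.31 over the 74 genes and 0.08 over all tested genes. By complex the medians were -0.36 in complex I, 0.13 in complex II, -0.20 in complex III, -0.50 in complex IV and -0.41 in complex V. Among the lowest was Cox6b1, on the outer face of complex IV, which stood at 7.81 against 8.78 to 9.37 elsewhere (-1.24). Atp5k, subunit e of the ATP synthase, stood at 6.37 against 7.39 to 7.61 (-1.15). Ndufb11, Uqcr11 and Cox4i1 each stood 0.98 below. The highest were Ndufs8, which stood at 8.58 against 6.60 to 8.09 (1.14), and Uqcrc2, at 8.13 against 6.94 to 7.36 (0.96). Atp5h, Atp5c1, Sdhc and Ndufb9 lay 0.67, 0.60, 0.52 and 0.50 above. Of the 6 core genes of complex I, 5 were higher (median 0.26) and Ndufv2 was lower, whereas 22 of its 26 accessory genes were lower (median -0.48). TCA cycle genes had a median deviation from their 12-array means of 0.37 in this array, and assembly factors of complex I and of complexes II to V had 0.20 and 0.22. These genes and the split into core and accessory subunits were picked after the values were seen, this is a single array, and these deviations were not recomputed under other scalings.

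For 9 genes the table held a second row with the same single symbol, and rows could disagree. The other row of Atp5e, the epsilon subunit of complex V, had 7.76, 5.67, 7.57 and 7.84 in pre-miR-223 arrays, 6.45, 7.29, 5.76 and 3.66 in anti-miR-223 arrays, and 5.17, 4.77, 6.43 and 6.41 in scramble arrays. Here pre-miR-223 replicates 1, 3 and 4 were the highest of all 12 arrays, anti-miR-223 replicate 4 the lowest, and pre-miR-223 replicate 2 lay within the scramble range. It differed from scramble by 1.51 (0.03 to 2.997, limma adjusted p 0.891 in a fit over every row with 1 symbol above the level) with pre-miR-223, whereas the row used differed by -0.22 (-0.68 to 0.24). The other rows of Ndufa12 and Ndufa8, accessory subunits of complex I, differed by 1.05 (-0.11 to 2.22) and 0.86 (-0.17 to 1.89), against -0.23 and -0.20 for the rows used. The rows of Atp5h, Cox5b, Cox7b and Atp5d also disagreed in sign in at least 1 comparison, and those of Atp5g2 and Ndufa11 did not. What the other rows of Atp5e, Ndufa12 and Ndufa8 measure was not tested.

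**Figure D5:**
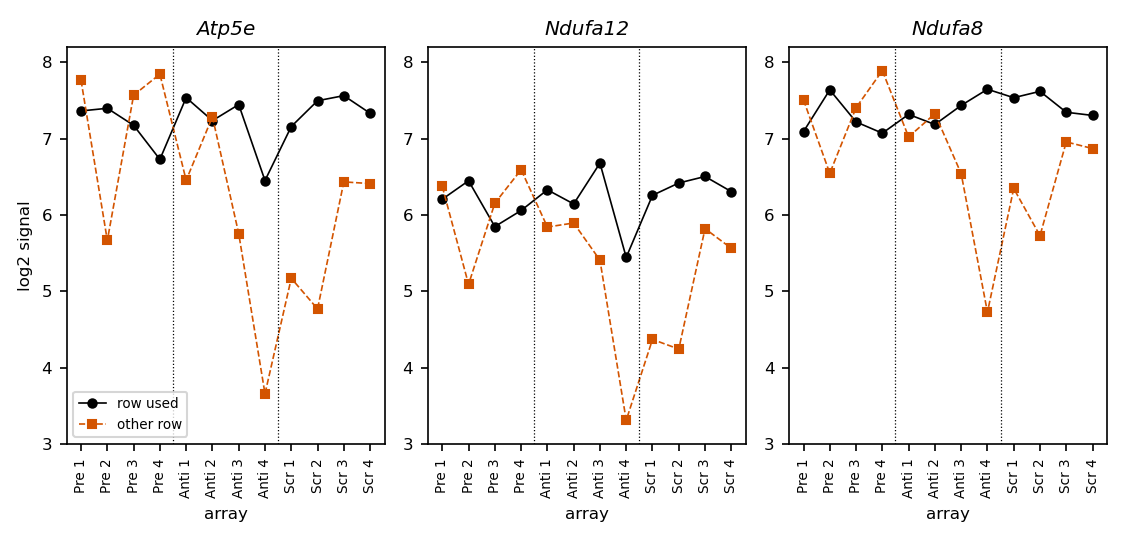
Log2 signal (vertical axis) of both rows of Atp5e, Ndufa12 and Ndufa8 in each array (horizontal axis; Pre, pre-miR-223; Anti, anti-miR-223; Scr, scramble, each with its replicate number). The other row (dashed) is high in pre-miR-223 replicates 1, 3 and 4 and lowest in anti-miR-223 replicate 4 in all 3 genes, and the row used (solid) varies less, from 6.45 to 7.56 for Atp5e.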

How the data were processed

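Total RNA of 12 RAW 264.7 samples in 3 groups of 4 was hybridised to Affymetrix arrays. The authors deposited a table of 41345 rows, already normalised, on a log scale read here as log2; RMA, Affymetrix Expression Console and Partek were used per the submitters' processing notes, which give no versions. RMA equalises the arrays' distributions, so a change in total RNA per cell cannot be seen. The log base was not stated and was taken as 2 because values ran from 0.53 to 12.45. The genome build is not given in the sources used here, and coordinates are those of the RefSeq tables.

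Differences between groups came from limma 3.58.1 under R 4.3.3, by lmFit and plain eBayes, with 12 arrays in 1 model, 9 residual degrees of freedom, 2-sided tests, 95% intervals and Benjamini-Hochberg adjustment over 14611 genes at 0.05. Tables were handled in Python 3.11.15 with pandas 2.3.3. The procedure was tested on simulated data. Arrays have no read depth, and their number limits the precision.

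Genes with values were the core subunits, the smallest p per complex and comparison, the largest SD per complex, isoforms, genes without overlap and genes with several rows; the genes of anti-miR-223 replicate 4, and the promoters printed, were chosen after their values were seen. Members and lists were chosen with earlier results of these data known. Same-numbered replicates were checked for pairing. Alternatives covered scaling, level filters, choice of row, model options, array weights, pairing and leaving out each array; the medians of each complex and list under other scalings were added after seeing the data.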

Additional observations from a re-analysis of the deposited data

Results flagged for a closer look

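Of 138 sets of 4 arrays examined (46 values in 3 groups), 12 held an array whose gap to the nearest other exceeded Dixon's 95% critical value as a share of the range. Chance flags about 1 in 20 such sets. Of the 12 arrays, 5 were anti-miR-223 replicate 4. There Uqcrq, an accessory subunit of complex III, stood at 3.50 log2 signal against 4.51 to 4.60 in the other 3 anti-miR-223 arrays. Cox4i1 stood at 7.99 against 8.89 to 9.02, Ndufb11 at 2.82 against 3.84 to 3.997, and Cox7b, a small complex IV subunit, at 8.61 against 9.68 to 9.74. Atp5c1, the gamma subunit, was high there, at 4.36 against 3.77 to 3.86. Atp5j2 was high in anti-miR-223 replicate 1, at 2.59 against 2.09 to 2.14.

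Among pre-miR-223 arrays, Uqcrh was high in replicate 2, at 6.89 against 6.43 to 6.51, Cox7a1 was low in replicate 4, at 3.37 against 3.82 to 3.83, and Cox7b was low in replicate 3, at 9.28 against 9.47 to 9.50. Among scramble arrays, Uqcrh was high in replicate 2, at 6.98 against 6.68 to 6.72, and Cox5b was low in replicate 1, at 6.995 against 7.32 to 7.37. The median deviation of complex I was lower in scramble replicate 4, at 0.0684, than in the other 3 scramble arrays (0.141 to 0.151). No cause was tested for any of these.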

How the results depend on the processing

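In each of 24 alternatives 0 subunit genes were called in any comparison. The median of the 74 genes against scramble stayed negative in all of them; leaving out arrays gave -0.28 to -0.16 with pre-miR-223 and -0.21 to -0.06 with anti-miR-223, and -0.13 to 0.02 for pre-miR-223 against anti-miR-223. The number of genes lower at an unadjusted p under 0.05 in pre-miR-223 against scramble, 14 in the values reported, was 30 with array weights (10.1% of all tested genes lower at that p, against 3.85% in the values reported), 25 with only the 2 groups compared (7.48%), and 5, 7 and 7 with centred arrays (1.79%), repeated quantile normalisation (3.61%) and cyclic loess (2.57%). The 3 such genes in anti-miR-223 against scramble became 1 with centred arrays, cyclic loess, a filter at the 60th percentile or array weights (1.16%, 1.42%, 1.22% and 2.63% of all tested genes lower). The 5 in pre-miR-223 against anti-miR-223 became 1 with centred arrays (1.38%), 3 with cyclic loess (2.53%) and 10 with array weights (3.91%). With the replicate block the number for pre-miR-223 against scramble was 9 (2.98% of all tested genes lower), calls stayed at 0 and the medians at -0.20, -0.14 and -0.03. Same-numbered arrays had correlations of -0.50 to 0.39 over 12 pairs, against -0.40 to 0.52 for other pairs, so no likeness by number was seen. This cannot show whether same-numbered arrays were handled together, which the labels do not say, and the blocked fit is only an alternative.

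Of 61 differences of single genes followed over the 24 alternatives, 19 turned sign in at least 1, 48 times in all. For pre-miR-223 against scramble, centred arrays gave Atp5c1 0.0441, Atp5g1 0.0640, Cox4i2 0.0296 and Ndufs1 0.0549, and repeated quantile normalisation gave Ndufs1 0.0407. Cyclic loess gave Atp5a1 0.0002, Atp5c1 0.0304, Atp5d 0.0146, Atp5g3 0.0165, Cox5a 0.0215 and Ndufs1 0.0855. The mean of both rows gave Atp5e 0.646, Ndufa12 0.411 and Ndufa8 0.333, by the construction of that mean, and array weights gave Cox4i2 0.101, Cox8b -0.0047, Sdha -0.0174 and Uqcrfs1 -0.0059. For anti-miR-223 against scramble, repeated quantile normalisation and cyclic loess gave Sdha 0.0096 and 0.0278, and array weights gave Cox6b1 0.0373, Sdhc -0.0464 and Uqcrq 0.0362. Leaving out arrays in turn gave -0.104 to 0.0350 for Atp5c1, -0.0740 to 0.0472 for Atp5g1, -0.190 to 0.0460 for Cox4i2, -0.107 to 0.103 for Cox8b, -0.0827 to 0.0214 for Ndufs1, -0.0492 to 0.0395 for Sdha and -0.0309 to 0.0703 for Uqcrfs1 with pre-miR-223. With anti-miR-223 it gave -0.40 to 0.12 for Cox6b1, -0.35 to 0.14 for Ndufs8, -0.0657 to 0.0315 for Sdha, -0.11 to 0.12 for Sdhc and -0.27 to 0.10 for Uqcrq. Apart from the mean of rows, the cause was not tested. The 4 arrays per group limit each gene to an interval of about 0.33 log2 on either side, and signals near the level limit carry little information.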
